A study of Sus scrofa with 6 samples.

Results

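POU2F3, ST14, PLET1 and LAMB3 are genes of covering epithelia and of the basement membrane beneath them, and they were picked by name with earlier results of these data known. All 4 were found among the 1780 genes of the count table by their Ensembl identifier, each had more than 10 reads in total, and each was among the 807 genes with enough reads to test. The libraries came from 6 pig embryos, each taken whole at embryonic day 21 and of Landrace x Yorkshire x Duroc (LYD) stock. The 3 controls were labelled untreated and carried both parental genomes. The 3 parthenogenetic embryos, or parthenotes, arose without sperm from oocytes given 2 electric pulses (1.2 kV/cm, each lasting 30 µs), so that all their chromosomes were maternal. Their protocol also lists 2 h of stabilization. The parthenotes were grown in 2 surrogate gilts, each given 200 embryos, so at least 2 of the 3 shared a gilt if all came from these gilts. How the controls were conceived, and which embryos were litter mates, is not described in the sources used here. A p-value therefore measures only how these samples spread. The absence of a paternal genome and any difference in dam, handling, sex or stage between the groups cannot be told apart.

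Of the genes analysed here, 685 could be placed by symbol in RefSeq's table, 684 of them on chromosome 9. Scaling and shares of all tested genes therefore describe the genes of this table, nearly all on that chromosome where placed. A listed gene that is missing from the table was not measured here, which says nothing of its level. Each library had 1193714 to 1484193 reads in the genes of the table, and a CPM value is a count per 1000000 of those reads, scaled by trimmed means (TMM). Such values compare libraries for 1 gene. They do not rank different genes, because transcript lengths were not used here. A floor of 3 reads corresponded to 2.02 to 2.36 CPM. Control 1 and parthenote 1 were the least like the others of their group, with a chi-square per degree of freedom of 141 and 143 for control 1 against the other controls (6.98 between those), and 61.0 and 52.8 for parthenote 1 (21.1 between the others). The most abundant gene, ENSSSCG00000014726, without a symbol here, took 20.8% of the reads in control 1 against 8.29% and 8.47% in the other controls, and 15.4% to 19.1% in the parthenotes. Markers of several tissues were present, as a whole embryo would hold them, among them COL1A2 of connective tissue (45264 ± 1636 CPM in controls), NCAM1 of neural tissue (5557 ± 667 CPM) and APOA1 of liver and yolk sac (30120 ± 2372 CPM; SD, n = 3 each).

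Surface epithelia rest on a basement membrane, to which they are tied by laminins. Laminin-332 is the form under the epidermis and other lining epithelia, and LAMB3 encodes its beta chain. ST14 encodes matriptase, a membrane-bound serine protease needed for the epidermal barrier. POU2F3 is a POU-domain transcription factor of keratinocytes and the regulator on which tuft cells, the chemosensory cells of mucosal epithelia, depend. PLET1, placenta expressed transcript 1, encodes a surface glycoprotein known from trophectoderm and from progenitor cells of several epithelia.

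POU2F3 had 108, 134 and 133 reads in control 1, 2 and 3, and 6, 7 and 16 reads in parthenote 1, 2 and 3. These reads came to 85.1, 105 and 100.4 CPM in the controls and 4.59, 4.96 and 10.8 CPM in the parthenotes. The groups were far apart, and parthenote 3 held more than the other two parthenotes. The parthenote mean of 6.77 ± 3.46 CPM was 6.99% of the control mean of 96.9 ± 10.5 CPM (SD, n = 3 each). On the log2 scale the difference was -3.82 ± 0.31 (SE), with a 95% interval of -4.52 to -3.12, or 14.1-fold lower. Without parthenote 3 it was -4.36. With 6, 7 and 16 reads in the parthenotes, POU2F3 met the filter on low counts only through the controls.

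ST14 had 452, 558 and 531 reads in the controls and 195, 221 and 219 in the parthenotes. Its level was 356, 438 and 401 CPM in control 1, 2 and 3, and 149, 157 and 147 CPM in parthenote 1, 2 and 3. The 3 parthenotes lay close together, with a coefficient of variation of 3.27%, where counting error alone would give about 6.87%. The parthenote mean was 151 ± 4.95 CPM and the control mean 398 ± 40.9 CPM (SD, n = 3 each). The log2 fold change was -1.40 ± 0.13 (SE), or 2.64-fold lower, so matriptase transcript remained at 37.9% of the control level while POU2F3 was at 6.99%.

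PLET1 was sparse in all 6 libraries, with 12, 20 and 18 reads in the controls and 2, 5 and 1 in the parthenotes. It met the filter on low counts only through the controls. Its level was 9.46, 15.7 and 13.6 CPM in the controls and 1.53, 3.54 and 0.673 CPM in the parthenotes, so parthenote 1 and 3 lay under the floor. Pooled over libraries, 8 reads in parthenotes against 50 in controls gave a level of 14.7% of control, with an exact 95% interval of 6.03% to 31.3% that covers counting error only. The fitted log2 fold change was -2.76 ± 0.58 (SE). Without parthenote 2, the parthenote with the most PLET1 reads, it was -3.58.

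LAMB3, the beta chain of laminin-332, did not share this pattern. It had 177, 162 and 211 reads in the controls and 233, 200 and 270 in the parthenotes, or 139, 127 and 159 CPM against 178, 142 and 182 CPM. The groups overlapped, since parthenote 2 lay below control 3. The means were 142 ± 16.2 CPM in controls and 167 ± 22.1 CPM in parthenotes (SD, n = 3 each). The log2 fold change was 0.24 ± 0.16 (SE), with a 95% interval of -0.12 to 0.59. RefSeq places a long non-coding RNA that overlaps the span of LAMB3, and since the library kit does not mark strand, reads of both cannot be told apart where they overlap. The spans of the other 3 genes overlap no other RefSeq gene.

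**Figure D1:**
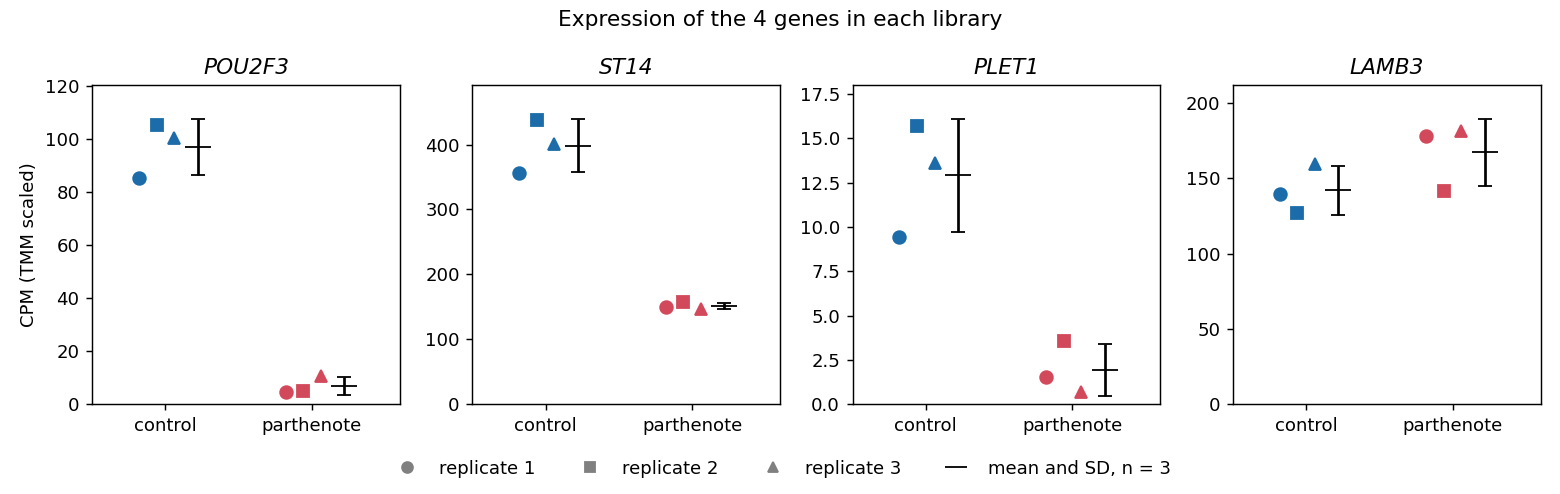
Expression of POU2F3, ST14, PLET1 and LAMB3 in CPM (TMM scaled) in each library, with a symbol per replicate number and the mean and SD of each group (n = 3). All parthenotes lie below all controls for POU2F3, ST14 and PLET1, while the LAMB3 groups overlap.

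These differences are given without a test, because the genes were chosen from this comparison. Called here means an adjusted p under 0.05 in the quasi-likelihood test of edgeR, with Benjamini-Hochberg adjustment across the 807 genes. POU2F3, ST14 and PLET1 were among the 29 genes called lower in parthenotes, which is 3.59% of the genes tested, and LAMB3 was not called. For the same 3 genes all parthenotes lay below all controls, as they did for 115 of the 807 genes (14.3%). As a description only, POU2F3 and ST14 were called in each of 16 alternatives. For POU2F3, as for PLET1, the filter of the main fit was met only through the controls. PLET1 was not called without control 2 (adjusted p = 0.118), control 3 (0.0746), parthenote 1 (0.0588) or parthenote 3 (0.0797). Ordered from the lowest log2 fold change of the 807 genes, POU2F3 stood at place 4, PLET1 at 6, ST14 at 16 and LAMB3 at 653. Over all tested genes the median log2 fold change was 0.02, with 384 genes below 0 and 423 above. At the edge of the call, RNF169 was the last gene inside, with an adjusted p of 0.0499, and EXPH5 the first outside, at 0.0521.

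Laminin genes other than LAMB3 were described next. LAMB1 and LAMC1 encode chains of laminins found widely in embryonic basement membranes. LAMB1 averaged 8764 ± 671 CPM in the controls against 7794 ± 1273 CPM in the parthenotes, and LAMC1 7380 ± 1091 and 7743 ± 466 CPM (SD, n = 3 each). Their log2 fold changes were -0.17 ± 0.14 and 0.07 ± 0.13 (SE), with adjusted p-values of 0.516 and 0.798 in edgeR's test. LAMC1 reads per LAMB1 read were 0.765, 0.875 and 0.877 in the controls and 1.14, 0.935 and 0.943 in the parthenotes, so this ratio did not overlap between groups, with parthenote 1 highest. LAMB4 had 6 to 19 reads per library and a log2 fold change of -0.04 ± 0.52. Of the 4 tested laminin genes reported here, LAMB3 included, 0 were called in edgeR's test, beside 5.20% of all tested genes. In that test 0 had an unadjusted p under 0.05, beside 21.7% of all tested genes, and 0 were called in DESeq2 or limma-voom. Their median log2 fold change was 0.01, beside 0.02 over all genes. HMCN1, which encodes the basement membrane protein hemicentin-1, was the only 1 of 15 listed partners of laminin-332 found by symbol in the count table. It had a log2 fold change of 0.23 ± 0.22 and an adjusted p of 0.595 in edgeR's test.

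Transcription factors of surface ectoderm and other epithelia were set beside POU2F3, which is itself one of them. Of the 6 tested genes of this list that are reported here 1 was called lower and 0 higher in edgeR's test, beside 3.59% and 1.61% of all tested genes. In that test 3 had an unadjusted p under 0.05 (POU2F3, DLX5 and DLX6), beside 21.7% of all tested genes. Without POU2F3, 0 of 5 were called and 2 had an unadjusted p under 0.05. DESeq2 and limma-voom called the same number of the 6, 1. The median log2 fold change of the 5 without POU2F3 was 0.34, beside 0.02 over all genes. These 5 lay above 0 and did not pass. TRIM29, a gene of basal epithelial cells and a close neighbour of POU2F3, averaged 302 ± 59.7 CPM in the controls against 337 ± 21.1 CPM in the parthenotes (SD, n = 3 each). Its difference was 0.16 ± 0.15 on the log2 scale (edgeR adjusted p = 0.597). BARX2, a homeobox gene of epithelia and muscle, had 0.13 ± 0.18, and SP8, a zinc finger gene of the limb's apical ectodermal ridge, 0.44 ± 0.25. DLX5 and DLX6, homeobox genes of limb, jaw and ear, had 0.46 ± 0.13 and 0.34 ± 0.13, with adjusted p-values of 0.0946 and 0.162. All parthenotes lay above all controls for DLX5 and DLX6, as they did for 111 of the 807 genes (13.8%).

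Ratios of reads within a library, which no scaling can alter, set the lower genes beside LAMB3. ST14 reads per LAMB3 read were 2.55, 3.44 and 2.52 in the controls and 0.837, 1.11 and 0.811 in the parthenotes. POU2F3 reads per LAMB3 read were 0.610, 0.827 and 0.630 in the controls and 0.0258, 0.0350 and 0.0593 in the parthenotes. Both ratios were lower in every parthenote than in any control. The genes were chosen from this comparison, so ratios with POU2F3 or ST14 restate their reads and support nothing further. ST14 reads per POU2F3 read were 4.19, 4.16 and 3.99 in the controls, a narrow range, and 32.5, 31.6 and 13.7 in the parthenotes, where POU2F3 had few reads. TRIM29, an epithelial gene that lies 92747 bp from POU2F3, had 2.95, 3.50 and 2.86 reads per POU2F3 read in the controls and 68.7, 72.0 and 31.4 in the parthenotes.

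**Figure D2:**
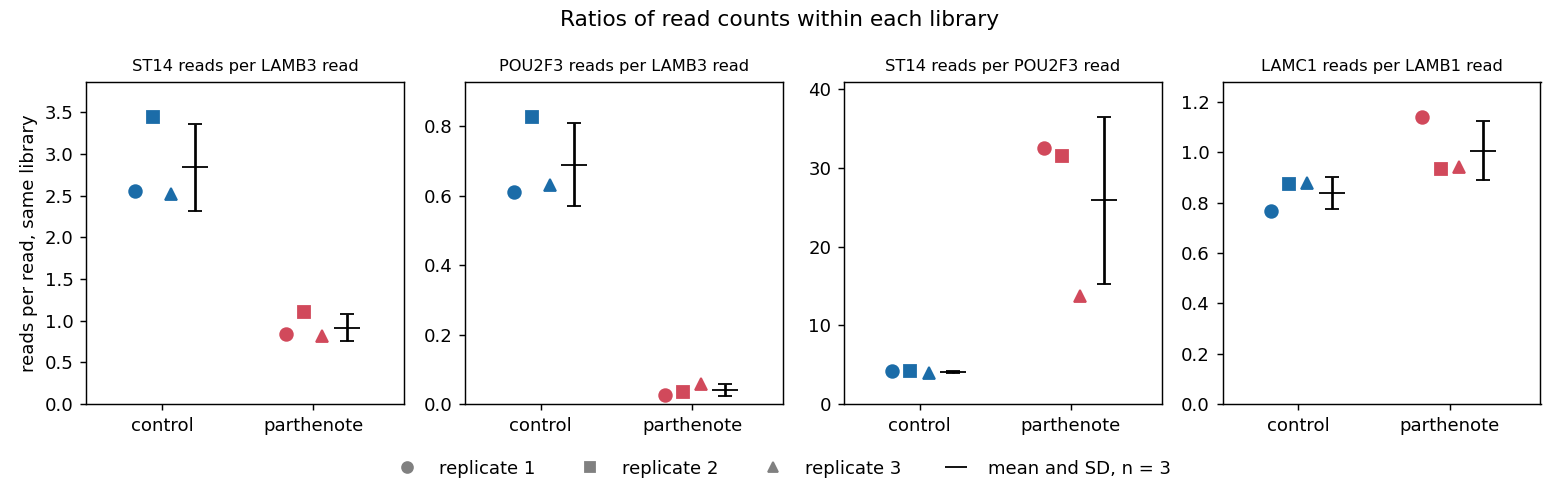
Ratios of read counts of 2 genes within the same library, with a symbol per replicate number and the mean and SD of each group (n = 3). ST14 and POU2F3 per LAMB3 are lower in every parthenote, while ST14 per POU2F3 and LAMC1 per LAMB1 are higher in every parthenote. Ratios with POU2F3 or ST14 restate reads of genes chosen from this comparison.

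Tuft cell genes were looked at because POU2F3 acts there with the coactivators POU2AF2 and POU2AF3. POU2AF3 had 196, 301 and 227 CPM in the controls and 228, 125 and 165 CPM in the parthenotes, which overlapped. On the log2 scale it differed by -0.48 ± 0.24 (edgeR adjusted p = 0.287). POU2AF1, a related coactivator of B cells, had 11 to 15 reads in controls and 4 to 9 in parthenotes and a log2 difference of -1.19 ± 0.46 (adjusted p = 0.171). POU2AF2 had 7 reads over all 6 libraries and counts as not measured. GNAT3, a G protein subunit of taste and tuft cells, had 5 to 17 reads per library and did not meet the filter, at 5.44 ± 0.888 CPM in controls against 8.66 ± 4.30 CPM in parthenotes (SD, n = 3 each). Of 3 tested genes of this list POU2F3 alone was called, beside 5.20% of all tested genes. In edgeR's test 2 of the 3 (POU2F3 and POU2AF1) had an unadjusted p under 0.05, beside 21.7% of all tested genes. For these 2 all parthenotes lay below all controls, as for 14.3% of all tested genes. All 3 had log2 fold changes below 0, with few reads for POU2AF1. The list therefore adds no call beyond the gene it was built around.

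Matriptase belongs to a family of surface serine proteases, of which 2 other members were tested. TMPRSS4 had 27, 14 and 20 reads in the controls and 14, 11 and 10 in the parthenotes, and TMPRSS13 had 17, 15 and 23 against 30, 37 and 21. Their log2 fold changes were -0.92 ± 0.39 and 0.57 ± 0.35 (SE), with opposite signs and adjusted p-values of 0.215 and 0.402 in edgeR's test. PRSS23, a secreted serine protease, averaged 943 ± 46.6 CPM in the controls against 867 ± 103 CPM in the parthenotes (SD, n = 3 each), a log2 fold change of -0.12 ± 0.10. Of the 4 tested genes of this list, ST14 was called lower and 0 were called higher, beside 3.59% and 1.61% of all tested genes. In edgeR's test 2 of the 4 (ST14 and TMPRSS4) had an unadjusted p under 0.05, beside 21.7% of all tested genes. For these 2 all parthenotes lay below all controls, as for 14.3% of all tested genes. The inhibitors and the receptor of matriptase on the list were not analysed here.

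Genes of epithelial adhesion gave no call in edgeR's test, and ESAM was the member with the lowest value. NECTIN1, an adherens junction protein of epidermis and other tissues, averaged 1891 ± 167 CPM in the controls against 1996 ± 121 CPM in the parthenotes (SD, n = 3 each). MPZL2, an epithelial adhesion gene, had 604 ± 38.9 and 600 ± 26.4 CPM. Their log2 fold changes were 0.08 ± 0.09 and -0.01 ± 0.10, with 95% intervals that do not reach the value of ST14. MPZL3, which acts in skin and hair follicle, had 0.19 ± 0.18, JAML 0.20 ± 0.25 and JAM3 0.12 ± 0.08. ESAM, the member of this family best known from endothelium, had -0.42 ± 0.11 (edgeR adjusted p = 0.0677). All parthenotes lay below all controls for ESAM, as they did for 115 of the 807 genes (14.3%). Of 6 tested genes 0 were called in edgeR's test and 1 (ESAM) had an unadjusted p under 0.05, beside 5.20% and 21.7% of all tested genes. DESeq2 called 1 of the 6 (ESAM, adjusted p = 0.0175) and limma-voom 0. Over the alternatives the adjusted p of ESAM ran from 0.0175 to 0.208. Their median log2 fold change was 0.10. Keratins and the classical epithelial cadherin were not analysed here.

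Secretory and barrier epithelium was represented by 6 tested genes, of which 1 (IL19) was called higher and 0 lower. IL19, a cytokine that acts on keratinocytes, had 3 to 6 reads in controls and 16 to 21 in parthenotes, higher by 1.85 ± 0.42 on the log2 scale (SE, edgeR adjusted p = 0.0393), one of the 1.61% of genes called higher. It met the filter on low counts only through the parthenotes, so its call supports nothing, and the call was lost in 8 of 16 alternatives. Its adjusted p was 0.0684 in a fit with a replicate block, 0.0596 in DESeq2, and 0.0579 to 0.169 without any 1 of the 6 libraries, namely 0.0757, 0.169 and 0.0925 without control 1, 2 and 3, and 0.0579, 0.126 and 0.0846 without parthenote 1, 2 and 3. C1orf116, an epithelial gene, averaged 123 ± 1.34 CPM in the controls against 93.6 ± 22.4 CPM in the parthenotes (SD, n = 3 each), a log2 difference of -0.40 ± 0.18 (adjusted p = 0.260). AGR2, a secretory cell chaperone, had 0.13 ± 0.34, SOSTDC1, a BMP and Wnt antagonist of epithelial buds, 0.22 ± 0.14, FOLR2 -0.30 ± 0.11 and TMEM45B -0.11 ± 0.54. PIGR, IL20 and IL24 had 4, 0 and 1 reads in all.

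**Figure D3:**
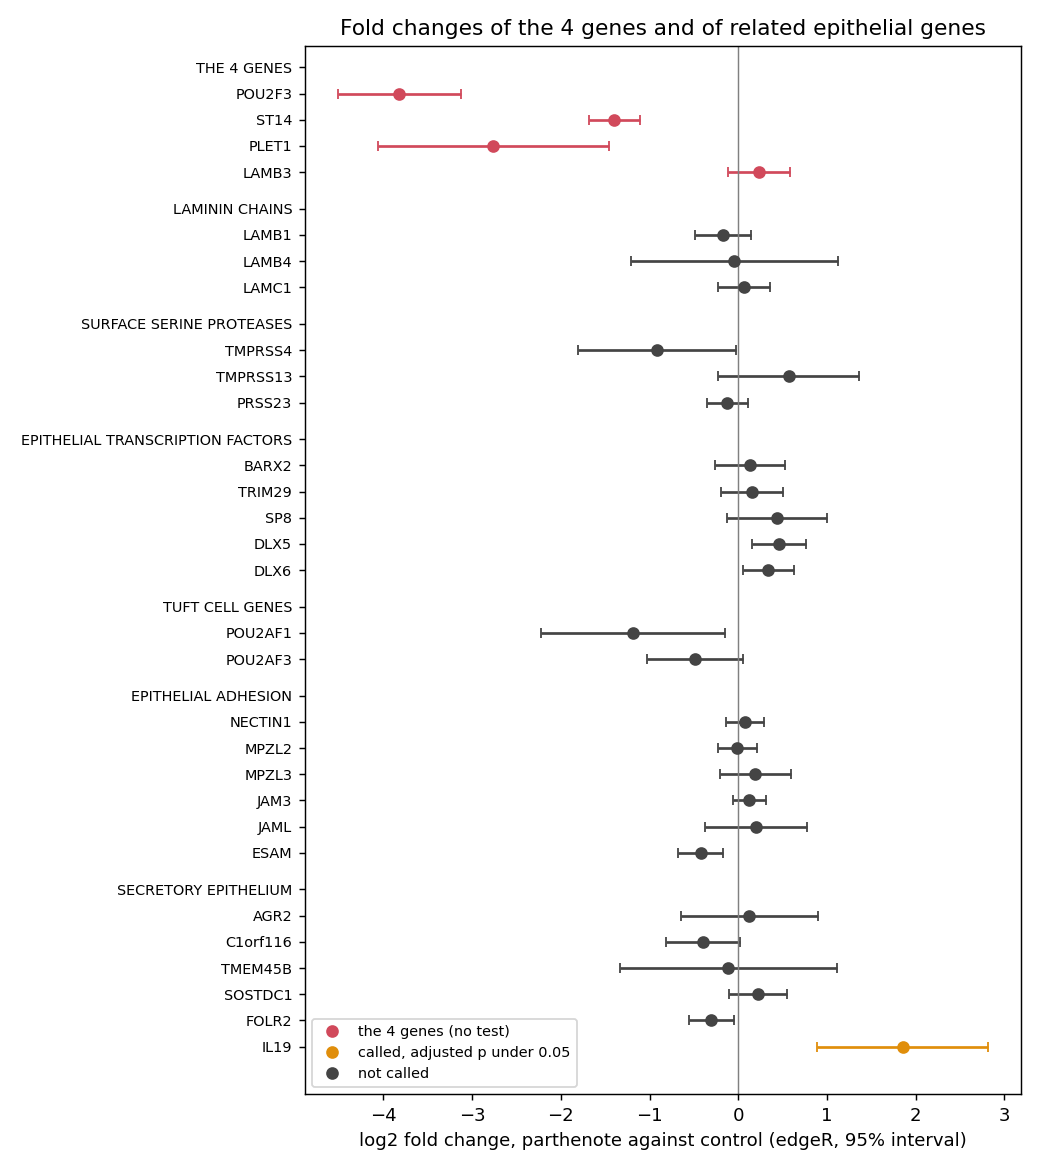
Log2 fold changes of parthenotes against controls with 95% intervals from edgeR for POU2F3, ST14, PLET1 and LAMB3 (red, not tested here) and for the reported genes of 6 epithelial lists (orange where called at an adjusted p under 0.05, grey where not). IL19 at 1.85 is the only called gene among the related ones shown.

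PLET1 was also set beside 6 other tested genes of extraembryonic membranes, since its name comes from the placenta. Of the 7 genes in all, PLET1 and PEG10 were called lower and APOC3 higher, beside 3.59% and 1.61% of all tested genes. The call of PLET1 is the one described above, which 4 fits with a library left out did not give and which met the filter only through the controls. PEG10, an imprinted gene expressed from the paternal copy, fell by 10.56 on the log2 scale (edgeR adjusted p = 1.76e-06). APOC3, an apolipoprotein of liver and yolk sac, rose by 1.08 ± 0.20 on the log2 scale (adjusted p = 0.0178), a call lost without control 1 (0.0609), control 2 (0.0730) or control 3 (0.0567). TFPI2 and PAPPA2, which trophoblast expresses in several mammals, had log2 fold changes of -0.44 ± 0.15 and 0.30 ± 0.12 (adjusted p = 0.136 and 0.180). The median log2 fold change of the 7 was 0.11, with 4 above 0 and 3 below. Their summed level was 59418 to 68789 CPM in the controls and 27138 to 52353 CPM in the parthenotes, lower in every parthenote. That sum includes PEG10, at 25305 to 34078 CPM in the controls and 10.1 to 27.5 CPM in the parthenotes. APOA1, the other large part of it, overlapped, at 27392 to 31691 CPM in controls and 22793 to 45978 CPM in parthenotes. The lower sum therefore does not describe the 7 genes as a set.

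Some genes of the embryonic kidney were lower in parthenotes, as POU2F3 and ST14 were. The mesonephros is a large epithelial organ of the early pig embryo. The 3 kidney genes reported here, KCNJ1, NHERF4 and SCIN, were each called lower, beside 3.59% of all tested genes. Their median log2 fold change was -2.28. They had entered the list with earlier results of these data known, so their count supports nothing. Their summed level was 1075 to 1186 CPM in the controls and 199 to 249 CPM in the parthenotes, and none was at 0. The 4 neural markers lay above 0, as did 423 of the 807 genes. Of these 4, 3 were called higher, beside 1.61% of all tested genes. Their sum was 7137 to 8376 CPM in the controls and 9616 to 11393 CPM in the parthenotes. NCAM1, which was not called (edgeR adjusted p = 0.170), was the largest part of that sum. It ran from 4797 to 6038 CPM in controls and from 6342 to 7798 CPM in parthenotes. NRCAM and MAP6 lost their calls with library totals as the only scaling (adjusted p 0.0948 and 0.0515), and NRCAM, MAP6 and FEZ1 each lost theirs without at least 1 library (0.0505 to 0.0843), control 2 or control 3 among them. Of the red cell and leukocyte list HBB was the only tested gene, at -2.30 ± 0.78 (edgeR adjusted p = 0.189). HBB was called by DESeq2 (adjusted p = 0.0456), by limma-voom (-2.61, 0.0293) and in edgeR without parthenote 2 (-3.37, 0.00550). CD3D was at 0 and CD3E had 7 reads in all. The summed level of that list was 875 to 2065 CPM in the controls and 102 to 575 CPM in the parthenotes. Of 2 genes of a uterine list in the table, PGR had 6 reads over the 3 controls and 0 in the parthenotes, and PTGS2, which other tissues also express, had 108, 94.9 and 79.3 CPM in the controls and 122, 498 and 188 CPM in the parthenotes. PTGS2 differed by 1.52 ± 0.50 on the log2 scale (SE, edgeR adjusted p = 0.144), and by 1.87 without parthenote 1, where it was called (0.0292). The part of these tissues in the levels of POU2F3, ST14 and PLET1 was not tested. In whole embryos, fewer cells of a type and less RNA per cell cannot be told apart.

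The genes most like each of the 4 were ranked by Pearson's r of log2 CPM over the 6 libraries, among 635 genes with a symbol and at least 10 reads in each control. For POU2F3 they were NHERF4 (r = 1.00), KCNJ1 (0.993), TOMT (0.988), SCIN (0.978) and ST14 (0.977). NHERF4, a scaffold protein gene, had 99.3, 111 and 113 CPM in the controls and 17.6, 19.1 and 29.6 CPM in the parthenotes, and so shared with POU2F3 the highest parthenote value in parthenote 3 and the lowest control value in control 1. When each library was taken as its deviation from its group mean, NHERF4 was again first for POU2F3 (r = 0.995). The uncalled genes TPR (0.981) and ANKIB1 (0.970) came next. This order ranks 635 genes over 6 values, with few POU2F3 reads in the parthenotes. By deviations ST14 had an r of only 0.08 with POU2F3. For ST14 the most alike were PEG10 (0.992), KCNJ1 (0.988), GRAMD1B (0.982), EDEM3 (0.980) and POU2F3 (0.977). These values describe 6 libraries in 2 separate groups, and for genes with a large difference between groups r mostly follows that difference.

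For PLET1 the most alike were ESAM (r = 0.996), HBB (0.962), ST14 (0.960), FOLR2 (0.958) and GPNMB (0.957), on the few reads that PLET1 had. For LAMB3 they were COA4 (0.936), VWDE (0.896), POLD3 (0.887), JAM3 (0.869) and FAM118B (0.804), none of them called. By deviations from the group means the first gene was C2CD2L for ST14 (0.985), ARAP1 for PLET1 (0.997) and CEP164 for LAMB3 (0.991), each uncalled and each from a ranking of 635 genes over 6 values. LAMB3 had an r of -0.56 with POU2F3, -0.66 with ST14 and -0.77 with PLET1 over the 6 libraries.

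The 4 genes lie in separate places of chromosome 9 of Sscrofa11.1, by RefSeq's table. PLET1 spans 39936355 to 39949709, POU2F3 47376852 to 47458265, ST14 56888246 to 56929771 and LAMB3 133298009 to 133351162. To see whether neighbours shared the differences, the 3 nearest tested genes with a symbol on each side of each gene were taken. Of these 24 neighbours 0 were called in edgeR's test against 5.20% of all tested genes, and 7 (29.2%) had an unadjusted p under 0.05, against 21.7% of all tested genes. DESeq2, which called 65 genes in all against 42 in edgeR, called 3 of the 24, SDHD, APLP2 and G0S2. Their log2 fold changes ran from -0.77 for TRAF3IP3 to 1.22 for G0S2, both beside LAMB3, with a median of 0.02.

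Among tested genes with a symbol, the nearest to POU2F3 were OAF, 13083 bp away, and ARHGEF12, 16300 bp away on the other side. Their log2 fold changes were -0.06 ± 0.10 and 0.01 ± 0.13 (SE), so these genes did not share the difference in POU2F3. Any closer gene that was untested or had no symbol was left out of this comparison. GRIK4, a glutamate receptor subunit and the next such gene after ARHGEF12, had 0.47 ± 0.14 (edgeR adjusted p = 0.0946). ST14 lies 16396 bp from APLP2 and 17373 bp from ZBTB44, with -0.29 ± 0.10 (edgeR adjusted p = 0.138) and 0.14 ± 0.08. CAMK1G, 360 bp from LAMB3, had 0.22 ± 0.15, close to LAMB3 itself.

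The surroundings of PLET1 differed on its 2 sides. PTS, IL18 and SDHD, the 3 neighbours on the side of lower coordinates, had log2 fold changes of -0.67 ± 0.25, -0.64 ± 0.20 and -0.54 ± 0.14 (SE). NCAM1, TTC12 and DRD2 on the other side, which begin 678892 bp away, had 0.33 ± 0.13, 0.36 ± 0.24 and 0.36 ± 0.17. SDHD, a subunit of mitochondrial complex II, had an adjusted p of 0.0600 in edgeR's test, 0.00691 in the fit with a replicate block and 0.0124 by DESeq2. Its 16 alternatives ran from 0.00691 to 0.191. PTS and IL18 did not pass under any of 16 alternatives.

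**Figure D4:**
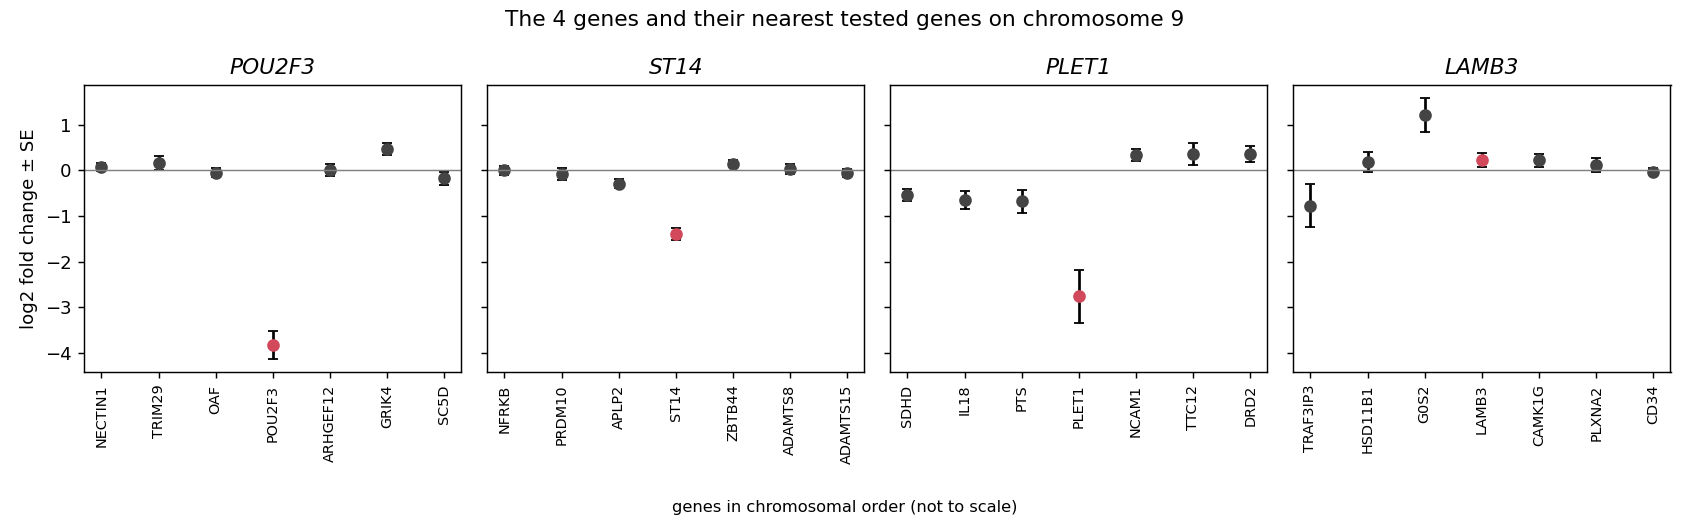
Log2 fold changes with SE from edgeR for POU2F3, ST14, PLET1 and LAMB3 (red) and their 3 nearest tested genes with a symbol on each side (grey), in chromosomal order and not to scale. The neighbours of POU2F3 and ST14 lie between -0.29 (APLP2) and 0.47 (GRIK4), and the 3 genes before PLET1 between -0.67 and -0.54.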

How the data were processed

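Total RNA of whole embryos was freed of DNA, and libraries were built with version 2 of the TruSeq RNA kit, per the labels' protocols. The submitters' processing notes name HISAT2 2.1.0, SAMtools 1.9 and the build Sscrofa11.1. The sources used here do not say how reads were counted or with which annotation. The authors deposited a table of raw read counts for 1780 genes, of which 779 were matched to a symbol. They also deposited, per sample, a file of normalized signal for 1190 genes, in which each value is a whole number of reads times a factor of that sample. Divided by that factor, 100% of the values came within 0.01 of a whole read. edgeR called 42 genes on those recovered reads.

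The raw counts entered edgeR 4.0.16 (R 4.3.3), with filterByExpr (minimum count 10, minimum total 15), TMM scaling, a robust quasi-likelihood fit and Benjamini-Hochberg adjustment at 0.05. The filter left 807 genes with 99.9% of the reads, and 42 were called, 29 lower and 13 higher in parthenotes. SE and 95% intervals of log2 fold changes come from that fit and include the spread between libraries. The exact interval of pooled PLET1 reads and the floors of reads cover counting error only. The script was tested on simulated data.

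The genes, lists and rules were chosen with earlier results of these data known. The rule for named genes took the called genes of each list, up to 6 others of the highest level, the 5 genes most alike and the 3 nearest genes on each side. RNF169, EXPH5 and the most abundant gene, and the genes given to explain a count, were added after their values were seen. Some genes of the lists are not reported here, and counts leave them out. Controls and parthenotes share replicate numbers. Same-numbered samples deviated from their group means together, with correlations of 0.365, 0.272 and 0.147 across the 807 genes, all above 0.1. Pairs with unlike numbers ran from -0.298 to 0.145. The highest of these, control 3 with parthenote 2, was close to the value of pair 3, so the data do not single out that pair. The number was used as a block in an alternative, though the labels do not give this pairing. Alternatives were other scalings, filters, DESeq2 1.42.0, limma-voom (limma 3.58.1), recovered reads, a stricter threshold, and leaving out the most abundant gene or each library. No pair within a group agreed within sampling noise (chi-square per degree of freedom between 6.98 and 143).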

Additional observations from a re-analysis of the deposited data

How the results depend on the processing

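In 16 alternatives each, POU2F3, ST14 and PLET1 kept log2 fold changes below 0 and LAMB3 above 0. With a library left out, the value ran from -4.36 to -3.61 for POU2F3, -1.47 to -1.33 for ST14, -3.58 to -2.35 for PLET1 and 0.16 to 0.34 for LAMB3. The count of called genes was 65 in DESeq2 and 17 at an adjusted p of 0.01, which is stricter by construction. With a library left out it ran from 17 to 55, namely 17 without control 2, 18 without control 3, 26 without parthenote 2 and 22 without parthenote 3. The cause was not tested for DESeq2 or for the libraries. With a library left out, 0 to 0 genes were called in the secretory list and 1 to 3 in the extraembryonic list. The secretory list had 0 called genes in DESeq2 and 0 with a replicate block, and the adhesion list 1 in DESeq2. The fit with a replicate block called 55 genes, and beyond IL19 and SDHD the block changed no call of a named gene or list. PLET1, POU2AF1, TMPRSS4, LAMB4 and IL19 were limited by their few reads.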
